A study of Homo sapiens with 24 samples.

Results

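The long noncoding RNAs MALAT1, NEAT1, NORAD and OIP5-AS1 were examined for peaks of N6-methyladenosine (m6A) in 4 deposited peak lists. Entries whose RefSeq transcript accession matched 1 of these 4 gene symbols were taken, which gave 32 of the 52777 peaks of the 4 lists. Each of the 4 genes was listed through 1 transcript. All noncoding RefSeq transcripts together carried 1202 peaks on 379 transcripts. RNA fragments of U2OS, a human osteosarcoma cell line, had been precipitated with an antibody against m6A and sequenced beside their input. The cells were METTL3 KO plus UV, METTL3 KO minus UV, WT plus UV or WT minus UV. These conditions had 2, 3, 4 and 3 precipitated (IP) libraries in that order, each with its own input. The labels name the same list for all replicates of a condition, and how the replicates were combined is unknown. All groups had been grown with 10 µM BrdU. Plus UV means UVC at a labelled dose of 50 J and minus UV means no UVC. An incubation of 2 min is labelled for all groups, with and without UV. The labels call the KO cells METTL3 KO without saying how the knockout was made or whether they are 1 clone. METTL3 is the catalytic subunit of the methyltransferase that places most m6A in polyadenylated RNA. A list gives positions alone, with no score and nothing from which depth could be read, and there is 1 list per condition. No difference between conditions could therefore be set against a spread between replicates, no test was made, and intervals cover counting error alone. A peak in 1 list and not in another cannot be told apart from a change in RNA level or in the number of libraries.

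m6A is placed on adenosines of nascent and nuclear RNA within a short consensus sequence and is bound by reader proteins that act on splicing, structure, localisation and decay. Polyadenylated long noncoding RNAs are substrates as well as messenger RNAs. MALAT1 is an abundant nuclear RNA of splicing speckles, whose m6A is known to open a hairpin to the RNA-binding protein HNRNPC. NEAT1 is the scaffold of nuclear paraspeckles, made as a short polyadenylated and a long form, and a known transcriptional target of p53. NORAD is a cytoplasmic RNA that binds PUMILIO proteins and is named for its induction by DNA damage. OIP5-AS1, also called cyrano, is mostly cytoplasmic and binds the microRNA miR-7 and the protein HuR. Antibodies against m6A also bind N6,2'-O-dimethyladenosine, a mark next to the cap, and the lists do not separate the marks.

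The 4 genes lie on 3 chromosomes (GRCh38). NEAT1 (chromosome 11, 65422798 to 65445540) and MALAT1 (chromosome 11, 65497738 to 65506516) are neighbours separated by 52197 bases. NORAD lies on chromosome 20 (36045618 to 36050960) and OIP5-AS1 on chromosome 15 (41282697 to 41313338). The listed transcripts were NR_002819 for MALAT1, NR_028272 for NEAT1, NR_027451 for NORAD and NR_026757 for OIP5-AS1. NR_028272 is the short form of NEAT1, so the part of the gene transcribed in the long form alone was not covered by any entry used here. Positions below count bases from the start of the listed transcript, both ends included, and the transcript version behind them is unknown.

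The number of peaks on the 4 RNAs was 6 in KO plus UV, 11 in KO minus UV, 8 in WT plus UV and 7 in WT minus UV. They covered 1025 bases in KO plus UV, 2222 in KO minus UV, 1432 in WT plus UV and 1425 in WT minus UV. They made up 0.0634%, 0.0794%, 0.0517% and 0.05% of all peaks of these lists. The KO minus UV list held a peak on each of the 4 genes, KO plus UV and WT plus UV on 3 each and WT minus UV on 2. NORAD was the only 1 of the 4 with a peak in every list, as 41.0% of all 9674 transcripts with a peak and 63 of 379 noncoding ones (16.6%) had.

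By gene, 0 of the 4 were listed in KO cells with UV alone, against 10.7% of all transcripts listed in either KO condition (13.0% of noncoding ones), and 1, MALAT1, without UV alone, against 29.3% (50.0%). In WT cells, 1 of the 3 listed genes, NEAT1, was listed with UV alone, against 18.9% of transcripts (33.1% of noncoding ones), and 0 without UV alone, against 9.44% (20.1%). Without UV, 2 of 4, NEAT1 and OIP5-AS1, were listed in KO cells alone, against 16.4% (30.7% of noncoding ones), and 0 in WT cells alone, against 18.6% (29.4%). With UV, 1 of 4, OIP5-AS1, was listed in KO cells alone, against 6.38% (10.4% of noncoding ones), and 1, MALAT1, in WT cells alone, against 35.4% (56.1%).

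**Figure D1:**
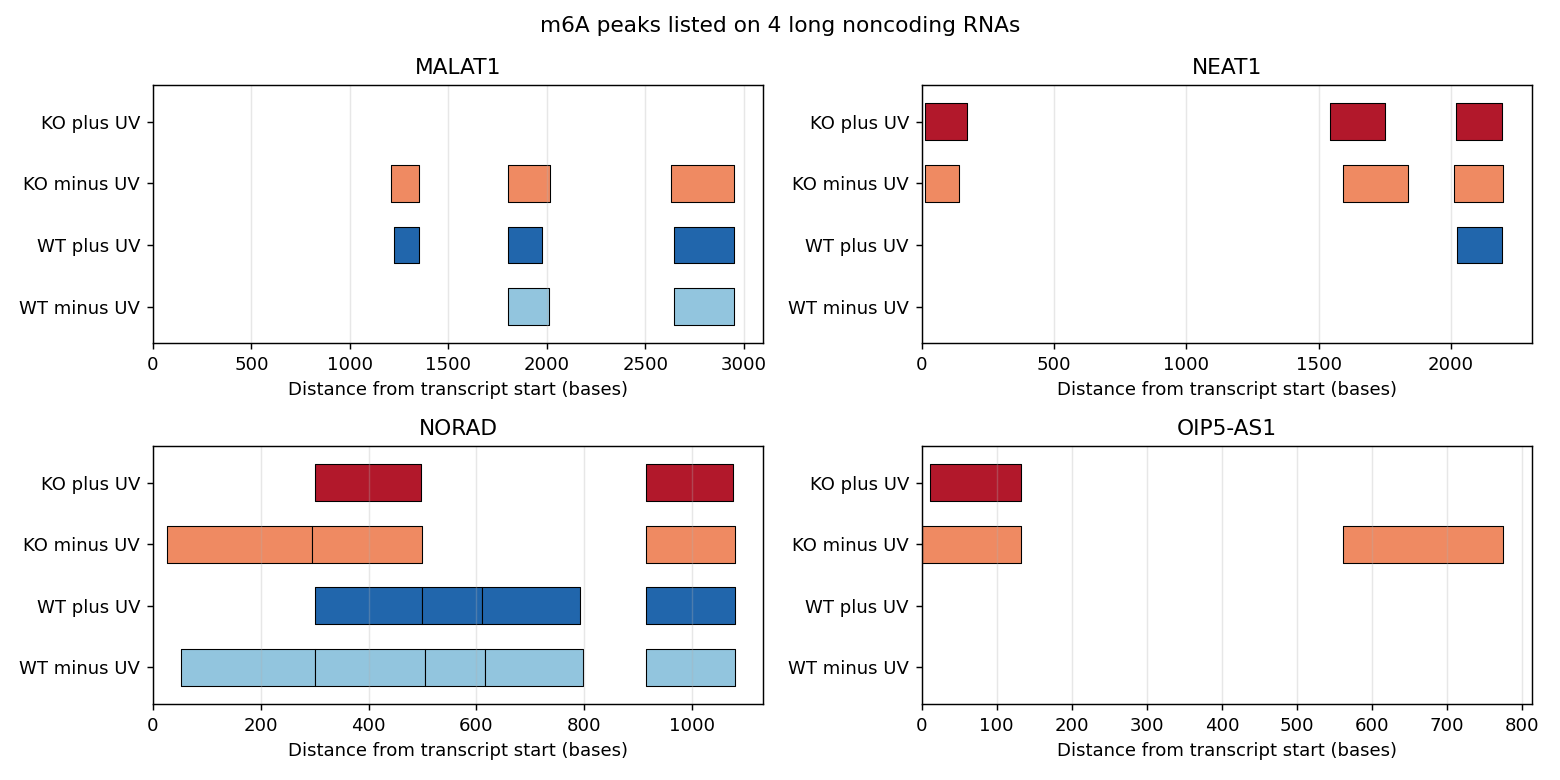
Position of every listed peak on the 4 long noncoding RNAs. The horizontal axis is the distance from the transcript start in bases and each row is the list of 1 condition; boxes are peaks. MALAT1 has no box in KO plus UV, NEAT1 none in WT minus UV and OIP5-AS1 none in either WT list, whereas NORAD has 2 to 5 boxes in each list.

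Of the nuclear RNAs, MALAT1 carried 0 peaks in KO plus UV, 3 in KO minus UV, 3 in WT plus UV and 2 in WT minus UV. The peak nearest the start lay at 1211 to 1352 in KO minus UV and at 1224 to 1352 in WT plus UV, with the same last base in both lists. It had no counterpart in the KO plus UV or WT minus UV list. The middle peak lay at 1801 to 2018 in KO minus UV, at 1801 to 1974 in WT plus UV and at 1801 to 2012 in WT minus UV, so that the first base was shared by the 3 lists. The peak farthest from the start, which was also the widest among the 32, lay at 2630 to 2951 in KO minus UV, at 2648 to 2948 in WT plus UV and at 2647 to 2950 in WT minus UV. The 3 lists had 301 bases of it in common. The last peak ended at 33.6% of the length of the gene, and no list held a peak in the remaining part of this RNA. MALAT1 is largely unspliced, so that gene length stands for transcript length here.

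The covered length of MALAT1 was 0 bases in KO plus UV, 682 in KO minus UV, 604 in WT plus UV and 516 in WT minus UV. With UV, KO cells had 3 peaks fewer and WT cells 1 peak more than without it. The whole lists differed in the same directions, with 9471 peaks with UV against 13852 without it in KO cells. In WT cells they held 15465 against 13989. Among the transcripts with a peak in either KO list, 29.3% were listed without UV alone, and this share was 50.0% among noncoding transcripts. The 3-list pattern of MALAT1, absent from KO plus UV alone, was that of 13.4% of all transcripts with a peak and of 10.0% of noncoding ones. KO plus UV was the condition with the fewest IP libraries, and the part of that in the absence of MALAT1 was not tested.

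NEAT1 carried 3 peaks in KO plus UV, 3 in KO minus UV, 1 in WT plus UV and 0 in WT minus UV. The peak at the start lay at 14 to 170 in KO plus UV and at 14 to 140 in KO minus UV, and neither WT list held it. A second one lay at 1541 to 1750 in KO plus UV and at 1591 to 1835 in KO minus UV, where it was displaced by 67.5 bases between centres, the largest distance among the matched peaks of the 4 RNAs. Again no WT list held it. The third lay at 2017 to 2193 in KO plus UV, at 2011 to 2195 in KO minus UV and at 2021 to 2192 in WT plus UV, the last of these contained within both KO peaks. The only NEAT1 peak of the WT lists was therefore at a site also listed in KO cells.

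Peaks covered 544 bases of NEAT1 in KO plus UV, 557 in KO minus UV, 172 in WT plus UV and 0 in WT minus UV. KO minus UV had the most covered bases on both neighbouring genes, while KO plus UV covered 0 bases of MALAT1 and nearly as many of NEAT1 as KO minus UV. Of the transcripts with a peak in either WT list, 18.9% were listed with UV alone, as NEAT1 was, and 33.1% of the noncoding ones. A peak in every list but WT minus UV was found for 4.59% of all transcripts and for 11 of 379 noncoding transcripts (2.90%).

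**Figure D2:**
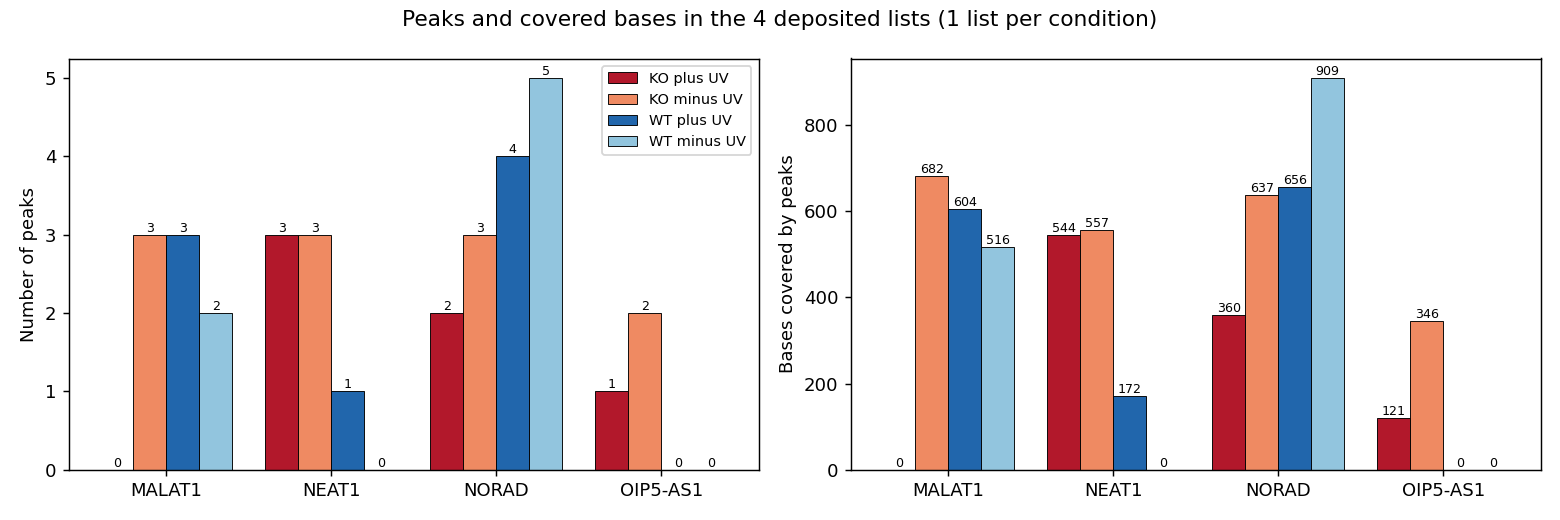
Number of peaks (left axis panel) and bases covered by peaks (right panel) on each RNA; each bar is the 1 list of a condition and carries its value, and there are no error bars because there is no replicate value. NORAD bars are lowest in KO plus UV (2 peaks, 360 bases) and highest in WT minus UV (5 peaks, 909 bases), while NEAT1 bars are highest in the KO lists.

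Of the cytoplasmic RNAs, NORAD carried the most peaks, with 2 in KO plus UV, 3 in KO minus UV, 4 in WT plus UV and 5 in WT minus UV. They covered 360, 637, 656 and 909 bases in the same order. All lay within the first 1078 bases, or 20.2% of the 5343 bases of this unspliced gene. The peak farthest from the start was at 915 to 1076 in KO plus UV and at 915 to 1078 in KO minus UV, WT plus UV and WT minus UV. Its borders were identical in the last 3 lists. Over all transcripts, identical borders were found for 2.95% of the peaks matched between WT plus UV and WT minus UV, and for 1.70% of those matched between KO minus UV and WT minus UV. On the 4 RNAs this NORAD peak alone had them, 1 of 6 and 1 of 5 matched peaks in these pairs. Between KO plus UV and KO minus UV it was 0 of 6, and between KO plus UV and WT plus UV 0 of 3. These shares are for pairs of lists, and that for 3 lists was not computed.

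A second NORAD stretch was listed in every condition, at 300 to 497 in KO plus UV, 296 to 499 in KO minus UV, 301 to 499 in WT plus UV and 301 to 504 in WT minus UV. Bases 301 to 497 and 915 to 1076 were covered in all 4 lists, 359 of the 935 bases covered in any. Upstream of bases 301 to 497, a peak was listed without UV in both genotypes, at 27 to 295 in KO minus UV and at 53 to 300 in WT minus UV. With UV neither genotype had such a peak, though the WT minus UV one shared 1 base, its last, with the KO plus UV peak at 300 to 497. Over all transcripts, 47.0% of KO minus UV peaks lacked an overlap in KO plus UV. Of WT minus UV peaks, 22.4% lacked one in WT plus UV. The share of sites listed without UV alone in both genotypes was not computed, so how common this pattern is remains unknown. Downstream, a pair of peaks was listed in WT cells and not in KO cells, with WT plus UV peaks over bases 500 to 609 and 610 to 792 and WT minus UV peaks over bases 505 to 615 and 616 to 797. This part held 293 bases that both WT lists and neither KO list covered, or 31.3% of the covered bases of NORAD. No share of bases was computed over all transcripts. By regions of overlapping peaks, 27.3% of all regions and 39.5% of noncoding ones were listed in WT cells and not in KO cells. Those shares also count regions that WT cells had with UV alone or without UV alone, unlike the 293 bases. The share of regions that WT cells had with and without UV, and that KO cells lacked, was not computed. How common this NORAD pattern is therefore remains unknown too.

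Several of these NORAD peaks touched each other with no base between them. Such pairs numbered 0 in KO plus UV, 1 in KO minus UV, 2 in WT plus UV and 3 in WT minus UV. They involved 9 of the 32 peaks of the 4 RNAs (28.1%), all on NORAD, against 8.19% of the peaks on all transcripts and 4.83% on noncoding ones. When peaks separated by at most 100 bases were joined, NORAD had 2 peaks in every list, so its order by peak number depended on how a continuous stretch had been divided. The covered length does not depend on this division, and its order was the same.

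The start of NORAD is shown because its sequence was at hand and the KO minus UV peak, which overlapped no peak with UV, reached into it. The KO peaks at the start of NEAT1 and OIP5-AS1 began nearer the first base. For the other RNAs no sequence that could be placed on the listed transcript was at hand. The first 50 bases of the transcript, on the minus strand at chr20:36050911-36050960 (RefSeq, GRCh38.p14), are given 5′ to 3′ below. Capitals mark bases 27 to 50, the 24 bases inside the KO minus UV peak, and the WT minus UV peak began at base 53.
NORAD: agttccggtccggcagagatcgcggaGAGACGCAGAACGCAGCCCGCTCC
GGACT, the best known form of the m6A consensus, was searched on both strands. The stretch held it 0 times on either strand, while 4.90% of 35116 RefSeq gene starts held it within the first 50 bases on the transcript strand and 4.91% on the other. Absence is thus usual for a gene start. The KO minus UV peak is 269 bases wide and its other bases were not searched, so nothing follows for the peak.

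OIP5-AS1 carried 1 peak in KO plus UV, 2 in KO minus UV, 0 in WT plus UV and 0 in WT minus UV. The peak at the start lay at 11 to 131 in KO plus UV and at 1 to 132 in KO minus UV, which contained it. A second peak lay at 561 to 774 in KO minus UV and in no other list. Covered bases numbered 121 in KO plus UV, 346 in KO minus UV, 0 in WT plus UV and 0 in WT minus UV. Presence in the pair of KO lists only was found for 192 of 9674 transcripts (1.98%) and for 12 of 379 noncoding transcripts (3.17%).

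Peaks that ended within the first 200 bases were found for NEAT1 and OIP5-AS1, once in KO plus UV and once in KO minus UV for each gene, and in no WT list. These were 4 of the 32 peaks, or 12.5%. Over all transcripts, the share of peaks ending there was 10.2% in KO plus UV, 8.16% in KO minus UV, 8.54% in WT plus UV and 7.70% in WT minus UV. In noncoding transcripts it was 13.0%, 9.63%, 9.66% and 7.81% in that order. The widths of the 32 peaks ranged from 110 to 322 bases with a median of 182.5, against 184 over all transcripts and 174 over noncoding ones. None of the 32 had the smallest width in the lists, 100 bases, which 6.43% of all peaks had.

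Peaks of different lists that overlapped by at least 1 base were joined into 10 regions on the 4 RNAs. Of these, 2 had a peak in every list, both on NORAD, against 25.7% of the regions of all transcripts and 14.7% of those of noncoding transcripts. The first of the NORAD regions ran over bases 27 to 797, a chain of peaks of different lists. The count below of regions listed in WT cells alone depends on this chain. Another 4 regions, on NEAT1 and OIP5-AS1, were listed in KO cells and not in WT cells, and 0 were listed in WT cells and not in KO cells, since the chain joined the WT peaks of NORAD at 500 to 797 to its other peaks. Over all transcripts, 14.8% of the regions were listed in KO cells alone and 27.3% in WT cells alone, and on noncoding transcripts 18.1% and 39.5%. With an overlap of 50% of the narrower peak required, an alternative added after the data were examined, the 4 RNAs had 13 regions, of which 2 had a peak in every list, 4 were listed in KO cells alone and 2 in WT cells alone. The 2 were the NORAD stretches at 500 to 615 and 610 to 797. Over all transcripts, 24.0% of the regions so formed had a peak in every list, 15.8% were listed in KO cells alone and 28.1% in WT cells alone. Of the 4 regions of KO cells alone, 3 were in both KO lists, a pattern of 2.53% of all regions and 2.71% of noncoding ones. The first and second peak sites of NEAT1 and the start of OIP5-AS1 were these 3. The third site of NEAT1 was the 1 region missing from WT minus UV alone, a pattern of 3.78% of all regions and 2.88% of noncoding ones. The middle and last sites of MALAT1 were the 2 regions missing from KO plus UV alone, a pattern of 12.4% and 9.32%. Peaks on 1 transcript are not independent, and the 4 regions of KO cells alone come from 2 genes.

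In KO cells, 0 of the 6 KO plus UV peaks lacked an overlap in KO minus UV (exact binomial 95% interval 0.0% to 45.9%), against 22.6% over all transcripts and 27.1% over noncoding ones. In the other direction 5 of 11 KO minus UV peaks (45.5%, 16.7% to 76.6%) lacked an overlap in KO plus UV, against 47.0% and 59.6%. These 5 were the 3 of MALAT1, the first of NORAD and the second of OIP5-AS1. All KO plus UV peaks on these RNAs therefore lay where KO minus UV had one.

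In WT cells, 2 of 8 peaks listed with UV (25.0%, 3.19% to 65.1%) lacked an overlap without UV, against 30.0% over all transcripts and 45.4% over noncoding ones. They were the first peak of MALAT1 and the peak of NEAT1, and both overlapped a KO minus UV peak. Of the 7 WT minus UV peaks, 1 (14.3%, 0.361% to 57.9%), the first of NORAD, overlapped no WT plus UV peak, against 22.4% and 35.3%.

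Between the genotypes without UV, 6 of 11 KO peaks (54.5%, 23.4% to 83.3%) overlapped no WT peak, against 31.1% over all transcripts and 44.7% over noncoding ones. They were the 3 of NEAT1, both of OIP5-AS1 and the first of MALAT1. Of the 7 WT peaks, 2 (28.6%, 3.67% to 71.0%), both on NORAD, overlapped no KO peak, against 32.1% and 45.6%. With UV, 3 of 6 KO peaks (50.0%, 11.8% to 88.2%) overlapped no WT peak, against 19.3% and 26.6%, namely 2 of NEAT1 and 1 of OIP5-AS1. In the other direction 5 of 8 WT peaks (62.5%, 24.5% to 91.5%) lacked an overlap with KO plus UV, against 51.0% and 65.8%. These were the 3 of MALAT1 and 2 of NORAD. Each of these intervals contained the shares over all and over noncoding transcripts. The intervals take peaks as independent, which peaks on 1 transcript are not, so a difference from these shares was not tested.

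**Figure D3:**
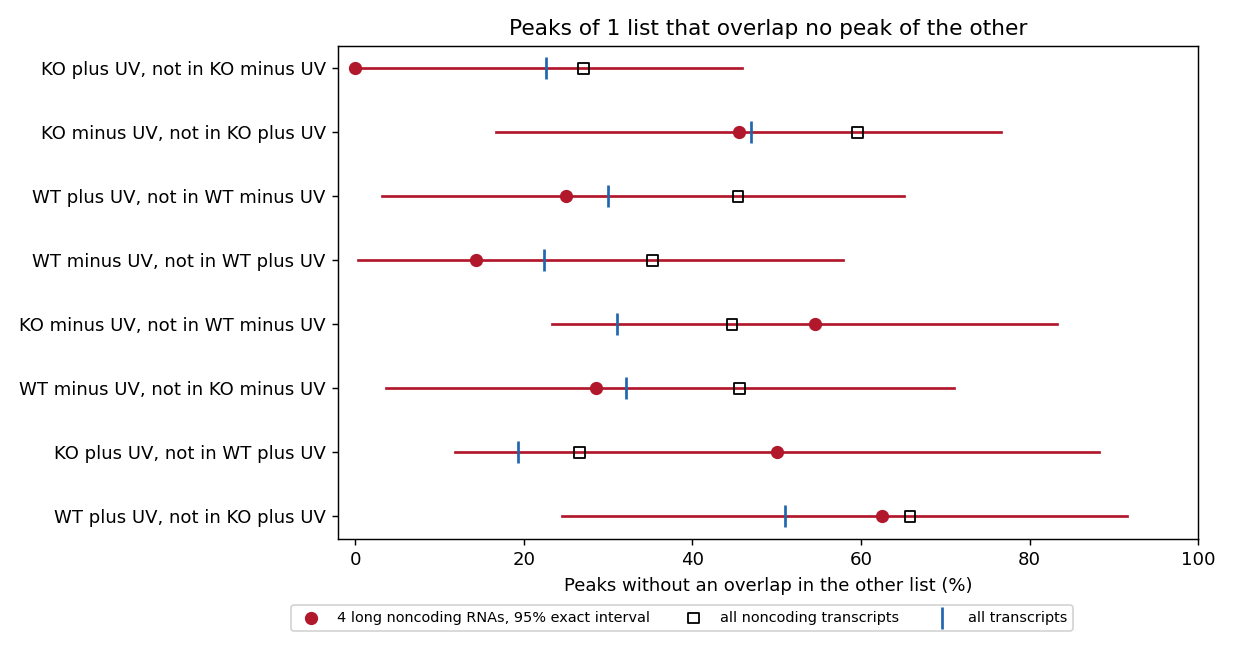
Share of the peaks of a list that overlap no peak of the other list (%), for the 4 long noncoding RNAs (circles with 95% exact binomial intervals), all noncoding transcripts (squares) and all transcripts (vertical ticks). The intervals of the 4 RNAs, which rest on 6 to 11 peaks, contain both marks in every row.

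Matching required an overlap, which by itself keeps the centres of matched peaks close. For the 6 matched KO plus UV peaks the median distance between centres was 3.25 bases from KO minus UV, and for the 6 matched WT plus UV peaks it was 4.0 bases from WT minus UV. Over all transcripts these medians were 11.0 and 9.5 bases. The 5 KO minus UV peaks matched in WT minus UV lay at a median of 5.0 bases, and the 3 KO plus UV peaks matched in WT plus UV at 1.5 bases. The corresponding medians over all transcripts were 13.0 and 12.5 bases.

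Among the 379 noncoding transcripts, NORAD was the 10th by bases covered, summed over the lists, with 2562. MALAT1 was the 22nd with 1802, NEAT1 the 40th with 1273 and OIP5-AS1 the 153rd with 467. The median noncoding transcript had 358 bases in 2 peaks, and 135 of the 379 (35.6%) had 1 peak in all. The sum gives no level of methylation, since neither the abundance of the RNA nor the depth enters it.

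**Figure D4:**
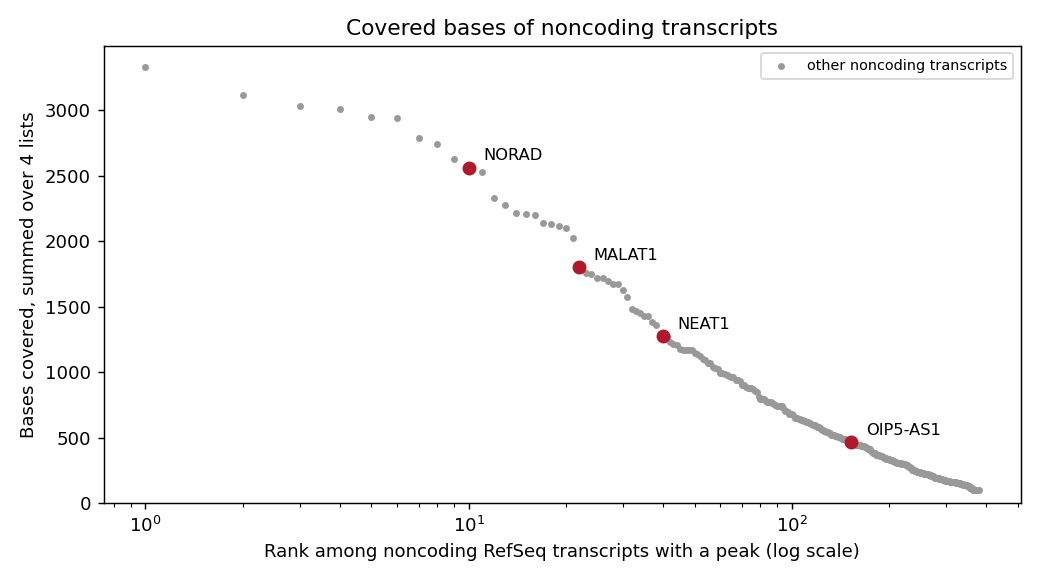
Bases covered by peaks, summed over the 4 lists, against the rank among 379 noncoding RefSeq transcripts (log scale); each grey point is a transcript and the red points are the 4 RNAs. NORAD is at rank 10 and OIP5-AS1 at rank 153.

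Likeness was measured as the Euclidean distance between the covered bases of the 4 lists, over 278 other noncoding transcripts with a symbol that is not a LOC or LINC name. The nearest to MALAT1 was the readthrough transcript HNRNPUL2-BSCL2, at 122 bases, with 0 bases in KO plus UV, 585 in KO minus UV, 584 in WT plus UV and 588 in WT minus UV. MEIS1-AS3 followed at 162 and SRGAP2D at 222. The nearest to NEAT1 were RNF216P1 at 270, MED15P9 at 338 and ZEB1-AS1 at 376, all of which had covered bases in WT minus UV, unlike NEAT1. The nearest to NORAD were BAIAP2-DT at 297, SMPD4BP at 299 and TMX2-CTNND1 at 313. The nearest to OIP5-AS1 were KIAA1656 at 140, listed in KO minus UV alone, BLOC1S5-TXNDC5 at 152 and DUXAP10 at 156, a copy-numbered transcript listed in KO cells alone. Readthrough transcripts and pseudogenes share sequence with other genes, and how reads were assigned among them is unknown.

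Of 40 other known long noncoding RNAs chosen as a comparison, 39 were in the RefSeq table and 10 carried a peak in any list. They numbered 6 in KO plus UV, 7 in KO minus UV, 6 in WT plus UV and 5 in WT minus UV. MIR22HG, the host of a microRNA, FGD5-AS1, HCG11 and SNHG16, a host of small nucleolar RNAs, were the 4 with a peak in every list, as NORAD was. MIR22HG had 531 covered bases in KO plus UV, 657 in KO minus UV, 491 in WT plus UV and 455 in WT minus UV. FGD5-AS1 had 279 in KO plus UV, 776 in KO minus UV, 370 in WT plus UV and 679 in WT minus UV. HCG11 had 506 in KO plus UV, 512 in KO minus UV, 472 in WT plus UV and 534 in WT minus UV, and SNHG16 had 292, 328, 167 and 174 in the same order. All 4 genes had covered bases in both genotypes with and without UV. SNHG15 was the 1 gene with the list pattern of NEAT1, with 151 bases in KO plus UV, 131 in KO minus UV, 100 in WT plus UV and 0 in WT minus UV. The pattern of MALAT1 and that of OIP5-AS1 were each found for 0 of the 10. HOTAIR had a peak of 160 bases in WT minus UV alone and THUMPD3-AS1 one of 157 bases in WT plus UV alone. RPPH1, the RNA of ribonuclease P, had a peak of 120 bases in KO plus UV alone, and SNHG1 and SNHG5 were listed in KO minus UV alone.

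Among markers of the cell line's origin, 4 of 8 osteoblast lineage genes carried a peak in any list (RUNX2, COL1A1, SPARC and SPP1), as did 0 of 4 blood and 2 of 4 epithelial genes (EPCAM and KRT8). A peak list holds no transcript level, so neither the cell type nor the knockout, nor the nuclear or cytoplasmic place of the 4 RNAs, could be checked from it.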

How the data were processed

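Per the labels' protocols, polyadenylated RNA was precipitated with an antibody against m6A and sequenced as 50-base single-end reads, in 24 samples (12 IP and 12 input). Alignment tools and builds named in the submitters' processing notes are TopHat2 2.0.14 and hg38. How peaks were called, at what threshold and from which combination of replicates is unknown here. The deposited values have no unit of signal (other): they are peak starts and ends in bases along RefSeq transcripts. Depth per sample is unknown.

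Accessions were matched without version or copy number to symbols and coordinates of a RefSeq gene table (GRCh38.p14): 9563 of 9674 transcripts and 351 of 379 noncoding ones (accessions starting NR) matched. Width is end minus start plus 1. An overlap of at least 1 base counted as shared. Overlaps were computed in Python 3.11.15 and exact binomial (Clopper-Pearson) intervals at 95% with SciPy 1.17.1. The code for overlaps and regions, but not the intervals, was tested on simulated lists. The simulated peaks lay apart, so peaks that touch or form a chain, as on NORAD, were not covered by that test. The 4 RNAs and all lists were chosen with earlier results of these data known. Named were the 4 RNAs, all comparison RNAs with a peak (with values for the 8 with the most covered bases), the ranks of the 4 among noncoding transcripts, and the 3 nearest noncoding genes to each. Leaving out a replicate was not possible with 1 list per condition. Alternatives covered joining of nearby peaks, peak width, the overlap rule and bases in place of peaks.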

Additional observations from a re-analysis of the deposited data

Results flagged for a closer look

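For MALAT1, the difference between plus UV and minus UV had opposite signs in the 2 genotypes. The number of its peaks differed by -3 in KO cells (0 in KO plus UV, 3 in KO minus UV) and by 1 in WT cells (3 in WT plus UV, 2 in WT minus UV). The whole lists differed in the same directions, with 9471 peaks in KO plus UV against 13852 in KO minus UV. WT plus UV had 15465 against 13989 in WT minus UV. On noncoding transcripts there were 177 against 322 peaks in KO cells and 383 against 320 in WT cells. The signs are therefore not particular to MALAT1. The difference between the genotypes was not tested, since each condition has 1 list. The KO plus UV condition has 2 IP libraries, against 3 or 4 for the others.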

How the results depend on the processing

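Peaks separated by at most 100 bases were joined as an alternative, which left NORAD with 2 peaks in each WT list, against 4 in WT plus UV and 5 in WT minus UV as listed. The share of WT minus UV peaks without an overlap then became 0.0% both against WT plus UV (14.3% as listed) and against KO minus UV (28.6%), by construction, since the joined NORAD stretch overlaps. In covered bases, NEAT1 differed by -13 between KO plus UV and KO minus UV, against 0 in peaks; the other 15 differences kept their direction. Without the KO plus UV list, an alternative added after the data were examined, 4 of 10 regions had a peak in every remaining list, against 2 of 10. The added ones were the MALAT1 regions missing from KO plus UV alone, a pattern of 12.4% of all regions and 9.32% of noncoding ones. The share over all transcripts without that list was not computed. Leaving out peaks of 100 bases changed no value, since the 4 RNAs have none, and requiring an overlap of 50% of the narrower peak or centres within 100 bases changed no share without an overlap. The 50% rule, added for regions after the data were examined, gave 2 regions listed in WT cells alone, against 0, by dividing NORAD, and left the 4 of KO cells alone and the 2 in every list. Counting bases in place of peaks kept all 8 shares within their intervals. No paired analysis was possible because each condition has 1 list for all its replicates, and no replicate could be left out. The unknown depth means that the absence of a peak cannot be read as absence of the mark.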
